A study of Danio rerio with 3 samples.

Results

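The genes described here are 3 *miR9* loci of the zebrafish hindbrain, *CR848047.1* (*miR9.1*), *CU929451.2* (*miR9.3*) and *CU467822.1* (*miR9.6*), out of 27282 genes in each count table. The pairing of each clone-based symbol with a *miR9* locus comes from the study, since none of the 3 symbols was matched in the RefSeq table of assembly GRCz12tu or in the table of gene names. They were chosen by their measured values, as loci that the study detected at 44 hours post fertilisation (hpf) in progenitors, so their contrast between stages and their level in progenitors were used by the choice and are given as a description. All values come from wild-type (wt) LondonAB embryos, with 1 single-cell library at each of 16, 24 and 44 hpf, made from hindbrains dissected together with tissue around them. Each library pooled 40 tissues, and the embryos were grown at 25, 28.5 and 25 °C in stage order. There were no replicates, so no difference between stages, states or clusters was tested, intervals cover counting error only, and stage cannot be told apart from library, sequencing run or, for 24 hpf, growth temperature.

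miR-9 is a microRNA conserved among vertebrates and found mainly in the nervous system. It is cut from longer primary transcripts of several loci, each made by RNA polymerase II, and the mature microRNA then lowers the translation and stability of messenger RNAs that pair with its seed. In the zebrafish hindbrain, miR-9 is known to act both on genes that keep progenitors undifferentiated, such as *her6* and *zic5*, and on the neuronal gene *elavl3*, and it takes part in the timing of neurogenesis. The libraries captured polyadenylated RNA from its 3′ end, so a count at a *miR9* locus is a count of the primary transcript or another transcript of that locus, and the mature microRNA was not measured.

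The tables hold unique molecular identifiers (UMIs), each standing for 1 captured RNA molecule. The libraries held 2929, 2568 and 3529 cells, with a median of 9844, 8176.5 and 2727 UMIs per cell. The 44 hpf library is thus the shallowest, and 691 of its cells had fewer than 2000 UMIs. Cell barcodes were shared by 8 cells of the 16 and 24 hpf libraries, by 18 of the 16 and 44 hpf libraries and by 11 of the 24 and 44 hpf libraries. After removal of cells with outlying depth or mitochondrial share, clusters of neural cells held 1801, 1670 and 2542 cells, and non-neural clusters (epidermis, blood, mesenchyme, otic tissue and ganglia by their markers) held 924, 667 and 555. In neural cells *sox3*, a transcription factor of neural progenitors, was at 1781, 1717 and 1174 CPM (its UMIs summed over cells, per 1e+06 UMIs of those cells) in stage order, against 75.0 CPM in non-neural cells of 44 hpf.

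The 3 loci were nearly without UMIs in neural cells at 16 and 24 hpf and were plainly detected at 44 hpf. *CR848047.1* had 0 UMIs in 1801 neural cells at 16 hpf, which allows up to 0.170 CPM with a count of 0 taken as at most 3 UMIs. It had 5 UMIs at 24 hpf (0.370 CPM, 95% interval 0.1201 to 0.863) and 2403 UMIs at 44 hpf (348.6 CPM, 334.8 to 362.8). At 24 hpf the neural level of *CR848047.1* was not above that of non-neural cells (neural over non-neural 0.851, 0.166 to 5.48). Between 24 and 44 hpf the level of this locus differed 943-fold (403 to 2906). Against the limit of 3 UMIs at 16 hpf it was 2046-fold higher, and the exact 95% interval of the ratio to 16 hpf starts at 1663.

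*CU929451.2* had 2 UMIs at 16 hpf (0.114 CPM, 0.0138 to 0.410), 2 UMIs at 24 hpf (0.148 CPM, 0.0179 to 0.534) and 1225 UMIs at 44 hpf (177.7 CPM, 167.9 to 187.9). The ratio of 44 to 24 hpf was 1201 (332 to 9930), with an interval that wide because it rests on 2 UMIs at the earlier stage. Those 2 UMIs were not above the non-neural level of 24 hpf (neural over non-neural 0.510, 0.037 to 7.04). *CU467822.1* differed from the other loci in having a countable level before 44 hpf. It had 11 UMIs at 16 hpf (0.625 CPM, 0.312 to 1.12), 55 UMIs at 24 hpf (4.07 CPM, 3.06 to 5.30) and 3521 UMIs at 44 hpf (510.8 CPM, 494.1 to 527.9). Its level at 24 hpf was 6.51 times that at 16 hpf (3.37 to 13.8), and its level at 44 hpf was 126 times that at 24 hpf (96.2 to 167). The 55 UMIs of 24 hpf lay in 52 neural cells. Neural over non-neural was 4.01 for *CU467822.1* at 24 hpf (1.82 to 10.4). At 16 hpf that ratio was 5.69 (0.827 to 245), with an interval that includes 1, so its 16 hpf level was not told apart from the non-neural level.

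All 3 loci were at least 2-fold higher at 44 than at 24 hpf, as were 15.8% of the 11557 genes with at least 20 UMIs over both stages, a count that the choice of the loci fixes. In the same contrast, *fabp7a*, a fatty acid binding protein of radial glia, was 2.80 times as high at 44 hpf, and *elavl3*, an RNA-binding protein of newly formed neurons, 2.27 times. *sox3* was at 0.684 times, the proneural gene *neurog1* at 0.530 times and the proliferation gene *mki67* at 0.317 times its 24 hpf level. *sox3*, *neurog1* and *mki67* were thus lower at the stage at which the *miR9* loci were higher.

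**Figure D1:**
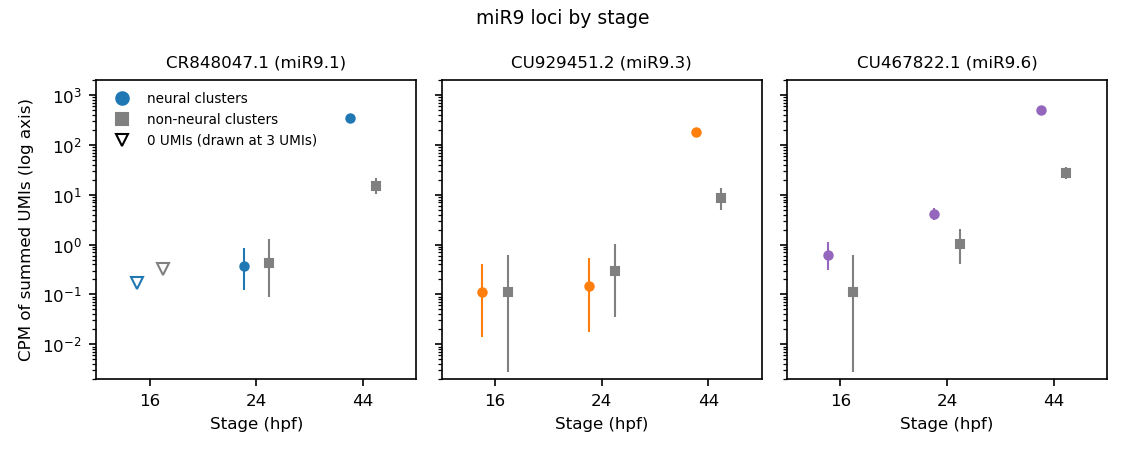
Level of each *miR9* locus (CPM of summed UMIs, log axis) at 16, 24 and 44 hpf in neural clusters (circles) and non-neural clusters (squares), with 95% Poisson intervals that cover counting error only; open triangles stand at 3 UMIs where the count was 0. At 44 hpf the neural level is 348.6, 177.7 and 510.8 CPM and the non-neural level 15.0, 8.44 and 27.7 CPM, and of the earlier values only *CU467822.1* in neural cells at 24 hpf is above 2 CPM.

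At 44 hpf the RNA was mostly in neural cells. *CR848047.1* was at 15.0 CPM in non-neural cells (10.3 to 21.2), *CU929451.2* at 8.44 CPM (5.00 to 13.3) and *CU467822.1* at 27.7 CPM (21.1 to 35.7). Neural cells were higher by 23.2-fold (16.4 to 34.0), 21.1-fold (13.3 to 35.6) and 18.5-fold (14.3 to 24.3) in that order. With 2000 UMIs drawn from each cell, so that all cells had equal depth, a UMI was found in 33.4%, 24.8% and 47.8% of 1942 neural cells and in 2.41%, 2.21% and 5.23% of 497 non-neural cells. In droplet libraries RNA that is free in the suspension gives UMIs to any cell, and the non-neural values are taken as the level that is read as background below. The non-neural clusters include an otic and ganglia-like cluster with *elavl3* in 83.9% of cells, so this level is not one of cells without neurons. Without equal depth, the median was 2471 UMIs in neural cells and 3933 UMIs in non-neural cells, and 933, 750 and 1257 of the 2542 neural cells had a UMI of the locus.

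UMIs per cell were low, as is usual for this depth. In neural cells with *CR848047.1* the median was 2 UMIs and the highest value 16, and 133 cells with 5 UMIs or more held 35.2% of its UMIs. *CU467822.1* was alike, with a median of 2, a highest value of 16 and 216 cells at 5 UMIs or more that held 38.7% of UMIs. *CU929451.2* had a median of 1, a highest value of 7 and 12 cells with 5 UMIs or more. Cells with a locus were deeper than those without it, for instance 2697 against 2299 UMIs in the median for *CU467822.1*, which is the reason that co-detection and states were read from equal UMIs.

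Co-detection was common. With 2000 UMIs a cell, 57.4% of 1942 neural cells (exact interval 55.2 to 59.6) had a UMI of at least 1 locus, against 8.25% of non-neural cells (5.98 to 11.0). Exactly 1 locus was found in 418 cells, exactly 2 loci in 449 and all 3 in 248 (12.8%), where detection independent of each other would give 3.97%. None was found in 827 cells (42.6%), where independence would give 26.1%. Of the cells with a single locus, 274 had *CU467822.1*, 79 *CR848047.1* and 65 *CU929451.2*.

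The pair of *CR848047.1* and *CU467822.1* was found together in 528 cells (27.2%, against 16.0% for the product of their shares), with an odds ratio of 9.69 (7.67 to 12.3). *CU467822.1* was detected in 81.4% of cells with *CR848047.1* and in 31.0% of those without it. *CU929451.2* and *CU467822.1* were found together in 375 cells (19.3% against 11.9%), with an odds ratio of 5.73 (4.49 to 7.35), and *CR848047.1* and *CU929451.2* in 290 cells (14.9% against 8.29%), with an odds ratio of 4.63 (3.70 to 5.79). The odds moved with the depth drawn: in the order in which the pairs are given here, they were 4.93, 3.29 and 3.27 with 1000 UMIs a cell and 18.7, 9.99 and 8.97 with all UMIs. These odds over all neural cells include the difference between progenitors, which have the loci, and neurons, which mostly do not.

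Within progenitor states the odds were closer to 1 than over all neural cells, to a differing extent. States were exclusive and were called from 1 UMI of 5 genes: *sox3*, *mki67*, *fabp7a*, *neurog1* and *elavl3*. In 276 cells with *fabp7a* but none of *mki67*, *neurog1* and *elavl3*, the odds ratio of *CR848047.1* and *CU467822.1* was 2.81 (1.43 to 5.62), that of *CR848047.1* and *CU929451.2* was 1.87 (1.11 to 3.19), and that of *CU929451.2* and *CU467822.1* was 1.53 (0.780 to 3.09). Among 96 cells with *mki67* and without *elavl3* the 3 odds ratios were 2.47, 1.67 and 1.30, and among 82 cells with *neurog1* and without *mki67* and *elavl3* they were 1.67, 0.794 and 0.921. Each interval in the *mki67* and *neurog1* states includes 1, and at these cell numbers the upper bounds went from 2.24 to 7.73. In 95 cells with *sox3* alone, by contrast, the odds ratio was 3.08 for *CR848047.1* and *CU929451.2* (1.18 to 8.50) and 3.51 for *CU929451.2* and *CU467822.1* (1.19 to 12.0), both above 1, and 1.67 for *CR848047.1* and *CU467822.1* (0.625 to 4.495). In the *mki67* state all 3 loci were found in 30.2% of cells, against 27.3% for the product of the shares, in the *neurog1* state in 17.1% against 16.9%, and with *sox3* alone in 24.2% against 17.1%.

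Cells with *elavl3* also had the loci together more often than independence gives. In 563 cells with both *sox3* and *elavl3* the odds ratios were 3.68 (2.48 to 5.52) for *CR848047.1* and *CU467822.1*, 2.23 (1.47 to 3.44) for *CU929451.2* and *CU467822.1* and 1.80 (1.25 to 2.61) for *CR848047.1* and *CU929451.2*. In 767 cells with *elavl3* and without *sox3* they were 7.92 (3.79 to 16.8), 6.24 (3.196 to 12.2) and 8.35 (3.44 to 19.3), although only 153 of these cells (19.9%) had any locus, 118 of them a single locus, 26 a pair and 9 all 3. The higher odds there rest on few cells, as 11 to 22 cells had a given pair. This state is also mixed in level. In 252 of its cells with the synaptic gene *snap25a* the loci were at 12.7, 12.7 and 21.2 CPM (*CR848047.1*, *CU929451.2*, *CU467822.1*). In the 515 cells without it they were at 47.7, 49.8 and 157 CPM. The odds include this difference, and co-detection was not compared within the 2 groups.

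**Figure D2:**
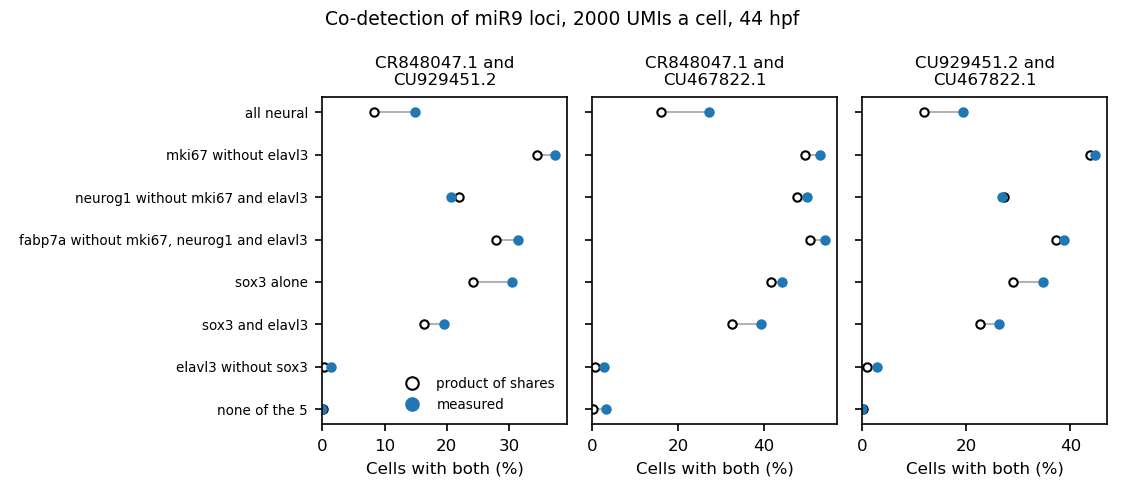
Share of neural cells of 44 hpf with a UMI of both loci of a pair, with 2000 UMIs drawn from each cell, for all neural cells and for 7 exclusive states; filled circles are the measured shares and open circles the product of the shares of the 2 loci. For all neural cells the measured share lies well above the product (27.2% against 16.0% for *CR848047.1* and *CU467822.1*), while the circles lie closer within the *mki67*, *neurog1* and *fabp7a* states (for that pair 53.1% against 49.5% in the *mki67* state and 54.3% against 50.7% in the *fabp7a* state).

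The level of the loci differed with each of the 5 state genes, most with *sox3*. The ratios are not on one scale across state genes, since a call from 1 UMI misses more cells of a scarcer gene. In neural cells of 44 hpf *sox3*, *fabp7a* and *elavl3* were at 1174, 1772.5 and 1081 CPM, but *neurog1* at 134 and *mki67* at 80.7 CPM. The part of this in the ratios was not tested. In 1079 neural cells with *sox3*, *CR848047.1* was at 583 CPM and in 863 cells without it at 50.3 CPM, a ratio of 11.6 (9.66 to 14.0). For *CU929451.2* the values were 285 and 41.2 CPM (ratio 6.93, 5.63 to 8.60), and for *CU467822.1* 819.8 and 127 CPM (ratio 6.48, 5.76 to 7.31). These ratios moved with the call of *sox3*, to 6.32, 4.62 and 4.32 when 2 UMIs were needed, 6.26, 4.16 and 4.52 with 1000 UMIs drawn and, for *CR848047.1*, 17.6 with all UMIs. A UMI of *CU467822.1* was found in 74.0% of cells with *sox3* and in 15.18% of cells without it.

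*fabp7a* was found in 774 of the 1942 cells. *CR848047.1* was at 567 CPM with it and 209 CPM without it (ratio 2.71, 2.47 to 2.97), *CU929451.2* at 258 and 129 CPM (2.002, 1.77 to 2.27) and *CU467822.1* at 783 and 345 CPM (2.27, 2.11 to 2.44). All 3 loci were at least 2-fold higher, as were 13.2% of the 8101 genes with at least 20 UMIs, and the level in radial glia was used by the choice of the loci. Where *sox3* was also present and *elavl3* was absent, the levels with and without *fabp7a* were closer: *CR848047.1* was at 739 CPM in 392 cells with *fabp7a* (693 to 787) and at 619 CPM in 124 cells without it (542 to 703). *CU929451.2* was at 342 CPM (311 to 375) and 288 CPM (237 to 348) in those cells, with intervals that overlap, and *CU467822.1* at 1001 CPM (948 to 1057) and 781 CPM (695 to 875), with intervals that do not.

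*mki67* was found in 165 cells, with a median of 3890 UMIs against 2675 UMIs in cells without it. *CR848047.1* was at 573 CPM with *mki67* and 338 CPM without it (ratio 1.70, 1.51 to 1.90), *CU929451.2* at 294 and 171 CPM (1.72, 1.46 to 2.01) and *CU467822.1* at 649.8 and 519 CPM (1.25, 1.13 to 1.39). The last ratio came to 1.09 (0.916 to 1.28) when 2 UMIs were needed to call *mki67*. *neurog1*, in 233 cells, gave ratios of 1.43 (1.28 to 1.61), 1.32 (1.11 to 1.55) and 1.54 (1.40 to 1.69) for *CR848047.1*, *CU929451.2* and *CU467822.1*.

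Cells with *elavl3* had less of each locus. In 1330 cells with it *CR848047.1* was at 228 CPM, and in 612 cells without it at 628 CPM (ratio 0.363, 0.333 to 0.396). *CU929451.2* was at 131 and 291 CPM (0.449, 0.398 to 0.507) and *CU467822.1* at 375 and 844 CPM (0.445, 0.414 to 0.477). Over the 2439 cells kept after removal of outlying cells and read at equal depth, non-neural ones included, the ratios came to 0.577, 0.717 and 0.705.

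**Figure D3:**
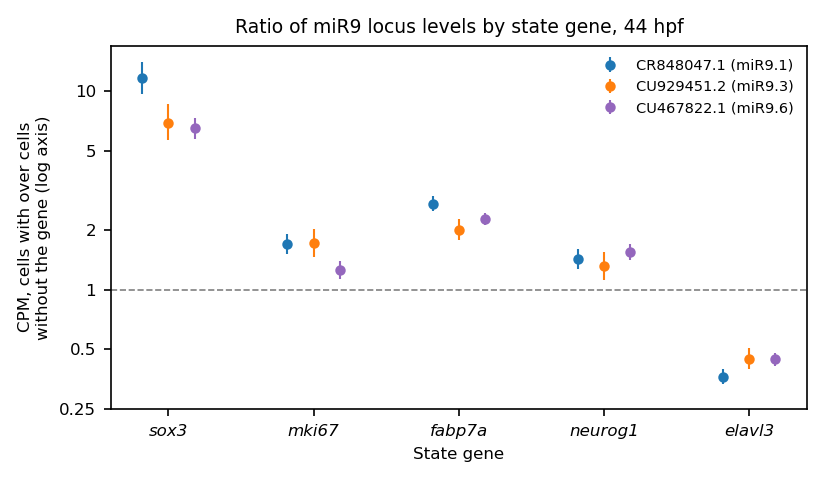
Ratio of the CPM of each *miR9* locus in neural cells of 44 hpf with over without a UMI of *sox3*, *mki67*, *fabp7a*, *neurog1* or *elavl3* (log axis), with exact intervals that cover counting error only; the dashed line marks a ratio of 1. The ratio is highest for *sox3* (11.6, 6.93 and 6.48), between 1.25 and 2.71 for *mki67*, *fabp7a* and *neurog1*, and 0.363, 0.449 and 0.445 for *elavl3*. Scarcer genes, here *mki67* and *neurog1*, are missed in more cells, so the ratios are not on one scale across state genes.

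Across the exclusive states, the loci were high in the *mki67*, *neurog1* and *fabp7a* states, with *sox3* alone and with both *sox3* and *elavl3*. They were low in *elavl3* cells without *sox3* and in cells with none of the 5 genes. The *mki67*, *neurog1* and *fabp7a* states were called without regard to *sox3*. *CR848047.1* was at 774 CPM in the *mki67* state (686 to 870), 723 CPM in the *fabp7a* state (669 to 781), 575 CPM in 95 cells with *sox3* alone (491 to 670), 564 CPM in the *neurog1* state (475 to 666) and 461 CPM in cells with both *sox3* and *elavl3* (429 to 493). In cells with *elavl3* and without *sox3* it was at 36.1 CPM (28.5 to 45.2), and in 63 cells with none of the 5 genes at 38.6 CPM (15.5 to 79.4). Each state overlapped its neighbour in this order, except that the step from cells with both *sox3* and *elavl3* to the last 2 states was far beyond the intervals.

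*CU467822.1* had another order among the progenitor states. It was highest in the *fabp7a* state, at 1016 CPM (952 to 1084), followed by the *neurog1* state at 903 CPM (788 to 1029), the *mki67* state at 802 CPM (712 to 899.7), *sox3* alone at 797 CPM (697 to 907) and *sox3* with *elavl3* at 694 CPM (656 to 734). It was at 112 CPM in cells with *elavl3* and without *sox3* (97.97 to 127) and at 66.1 CPM in cells with none of the genes (34.2 to 115). The *fabp7a* and *mki67* states did not overlap for this locus.

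For *CU929451.2* the levels were 369 CPM in the *mki67* state (309 to 437), 338 CPM in the *fabp7a* state (301 to 378), 260 CPM with *sox3* alone (204 to 326), 246 CPM in the *neurog1* state (188 to 316), 243 CPM with *sox3* and *elavl3* (221 to 267), 37.6 CPM with *elavl3* and without *sox3* (29.8 to 46.7) and 11.0 CPM with none (1.33 to 39.8). For each locus the 5 states with progenitor genes were closer to each other than to *elavl3* cells without *sox3*. Between all 516 cells with *sox3* and without *elavl3* and the 767 cells with *elavl3* and without *sox3*, the ratio was 19.7 (15.6 to 25.1) for *CR848047.1*, 8.78 (6.94 to 11.2) for *CU929451.2* and 8.52 (7.43 to 9.80) for *CU467822.1*. All 3 were at least 2-fold higher in the *sox3* cells, as were 19.3% of the 7066 genes with at least 20 UMIs. The level in progenitors was used by the choice of the loci.

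Neurons with a synaptic gene were at the background, the level of the non-neural clusters, which include ganglia-like cells. In 252 cells with *elavl3* and *snap25a*, a synaptic protein, and without *sox3*, *CR848047.1* and *CU929451.2* each had 9 UMIs (12.7 CPM, 5.83 to 24.2) and *CU467822.1* had 15 UMIs (21.2 CPM, 11.9 to 35.0), which overlaps the non-neural level of each locus. In 515 cells with *elavl3* and without *sox3* and *snap25a* they were at 47.7 CPM (37.1 to 60.5), 49.8 CPM (38.9 to 62.9) and 157 CPM (137 to 179), above the non-neural level. *sox3* was also found in 5.26% to 13.9% of cells of the non-neural clusters, where free RNA cannot be told apart from expression, and the part of such UMIs in the state calls was not tested. At equal depth, non-neural cells had *fabp7a* in 35.0%, *elavl3* in 24.95%, *mki67* in 9.66% and *neurog1* in 3.02%. The shares of neural cells were 39.9%, 68.5%, 8.50% and 12.0% in that order.

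**Figure D4:**
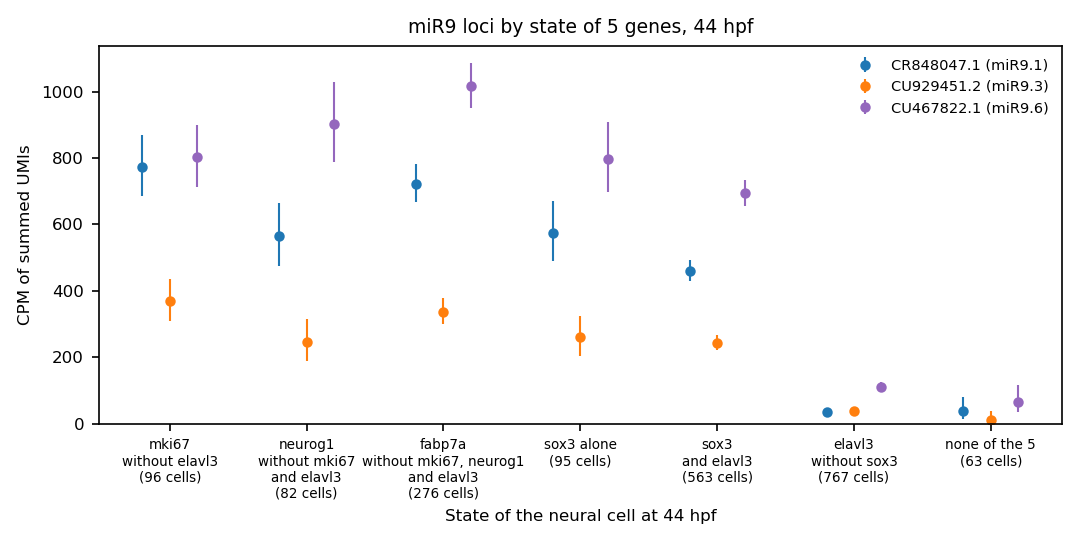
CPM of the 3 *miR9* loci in 7 exclusive states of neural cells at 44 hpf, with the number of cells under each state and 95% Poisson intervals that cover counting error only. The 5 states with progenitor genes or with both *sox3* and *elavl3* hold 461 to 774 CPM of *CR848047.1*, 243 to 369 CPM of *CU929451.2* and 694 to 1016 CPM of *CU467822.1*, and the *elavl3* state without *sox3* holds 36.1, 37.6 and 112 CPM.

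The balance between the loci was not the same in every state. UMI counts of different loci also depend on where the annotation places their 3′ ends, so a ratio between loci is compared here across states only. *CR848047.1* had 0.965 UMIs for each UMI of *CU467822.1* in the *mki67* state (0.816 to 1.14), 0.711 in the *fabp7a* state (0.642 to 0.788), 0.722 with *sox3* alone (0.588 to 0.885), 0.664 with *sox3* and *elavl3* (0.607 to 0.726), 0.625 in the *neurog1* state (0.502 to 0.775) and 0.324 with *elavl3* and without *sox3* (0.247 to 0.420). Among these 6 states, the value of the *mki67* state was above the intervals of the others, with its own interval overlapping that of *sox3* alone, and the interval of *elavl3* cells without *sox3* was below those of the other 5. Cells with none of the genes had too few UMIs to be placed (0.583, 0.195 to 1.61). *CU929451.2* against *CU467822.1* was at 0.460 in the *mki67* state (0.372 to 0.567) and at 0.336 in *elavl3* cells without *sox3* (0.258 to 0.435). *CU929451.2* against *CR848047.1* went from 0.477 in the *mki67* state (0.385 to 0.588) to 1.04 in *elavl3* cells without *sox3* (0.750 to 1.44), so that *CR848047.1* was the locus that differed most between progenitors and *elavl3* cells.

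Clusters were made without the 3 loci and the 5 state genes. At 44 hpf 18 of 22 clusters were neural. In 6 of them, with 1068 cells, *sox3* was found in 91.2% to 98.05% of cells, and the loci were at 538 to 1043 CPM (*CR848047.1*), 281 to 347 CPM (*CU929451.2*) and 783 to 1092 CPM (*CU467822.1*). In 9 neural clusters *sox3* was found in 3.23% to 14.0% of cells and *elavl3* in 74.0% to 96.8%, and the loci were at 0 to 64.6, 7.74 to 100.5 and 19.4 to 313 CPM. The 4 non-neural clusters had medians of 12.3, 6.25 and 27.2 CPM. For no locus did the range of the 6 clusters with most *sox3* overlap that of the 9 with least.

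*CR848047.1* was highest, at 1043 CPM (938 to 1157), in a neural progenitor-like cluster of 112 cells led by *slc1a3b*, a glutamate transporter of astroglia, and *nppc*. All of its cells with equal depth had *fabp7a*, 4.08% had *mki67* and 77.6% had *CR848047.1*. *CU467822.1* was at 1092 CPM (985 to 1209) in this cluster, and *CU929451.2* at 309 CPM (253 to 373), close to its level in the other progenitor clusters. A cluster of 237 cells led by *nusap1*, a gene of the mitotic spindle, in which 52.8% of cells had *mki67*, had 684.5 CPM of *CR848047.1* (631 to 741), 347 CPM of *CU929451.2* (309 to 388) and 783 CPM of *CU467822.1* (725 to 843). Between these clusters the intervals of *CU929451.2* overlapped, whereas those of *CR848047.1* and *CU467822.1* were apart.

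Clusters led by dorsoventral patterning and proneural genes also had the loci. A cluster of 214 cells led by *gsx2* and *ptf1a*, genes of dorsal progenitors, had 549 CPM of *CR848047.1*, 323 CPM of *CU929451.2* and 924 CPM of *CU467822.1*. An early neurogenesis-like cluster of 129 cells led by *atoh1a*, the proneural gene of the rhombic lip, had 718, 288 and 798 CPM, although 88.2% of its cells had *elavl3*. *sox3* was found in 91.2% of those cells. In a cluster of 124 cells led by *dbx1a* and *neurod4*, where 52.8% of cells had *neurog1* and 88.0% *elavl3*, the values were 538, 281 and 822 CPM.

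The floor plate-like cluster of 71 cells, led by *ntn1b*, had less *CR848047.1*, at 228 CPM (168 to 302), than each of the 6 clusters above. *CU929451.2* was at the same value there, and *CU467822.1* was at 736 CPM (624 to 861) and overlapped 4 of them. *sox3* was found in 82.1% and *fabp7a* in 76.8% of its cells. A cluster of 42 cells led by *foxn4* and *vsx1*, genes of progenitors in their last division, had *mki67* in 65.8% and *elavl3* in 97.4% of cells. It was low in each locus, with 46.9 CPM of *CR848047.1* (20.3 to 92.5), 58.7 CPM of *CU929451.2* (28.1 to 108) and 229 CPM of *CU467822.1* (163 to 313). High *mki67* thus went with a low level of the loci there, and *sox3* was found in 34.2% of the cells.

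The 9 neural clusters with few *sox3* cells had a median of 40.2 CPM of *CU467822.1*, 18.3 CPM of *CU929451.2* and 15.9 CPM of *CR848047.1*. These medians have no interval here. They cannot be placed against the non-neural intervals, which cover counting error of pooled UMIs and not the spread between clusters. *CU467822.1* was above its non-neural interval in, among others, the clusters led by *barhl1a*, *irx4a* and *otpa*. In a cluster of 196 cells led by *barhl1a* and *barhl2*, genes of dorsal dA1 interneurons that descend from *atoh1a* progenitors, it was at 313 CPM (262 to 372), with *CU929451.2* at 100.5 CPM (72.4 to 136) and *CR848047.1* at 64.6 CPM (42.6 to 94.0). In a neuron-like cluster of 119 cells led by *irx4a* and *dmbx1a* it was at 130.2 CPM (93.5 to 177), while *CR848047.1* was at 15.9 CPM (5.16 to 37.1) and *CU929451.2* at 12.7 CPM (3.46 to 32.5), both within their non-neural intervals. Outside the clusters with few *sox3* cells, an early neurogenesis-like cluster of 175 cells led by *zgc:77784* and *uncx4.1* had 159.9, 158 and 471 CPM. It was among the neural clusters with *sox3* in 30 to 90% of cells. The neuron-like clusters led by *nkx6.3*, *pou4f2*, *hmx2* and *esrrga* had at most 32.2, 18.3 and 24.2 CPM of the loci.

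**Figure D5:**
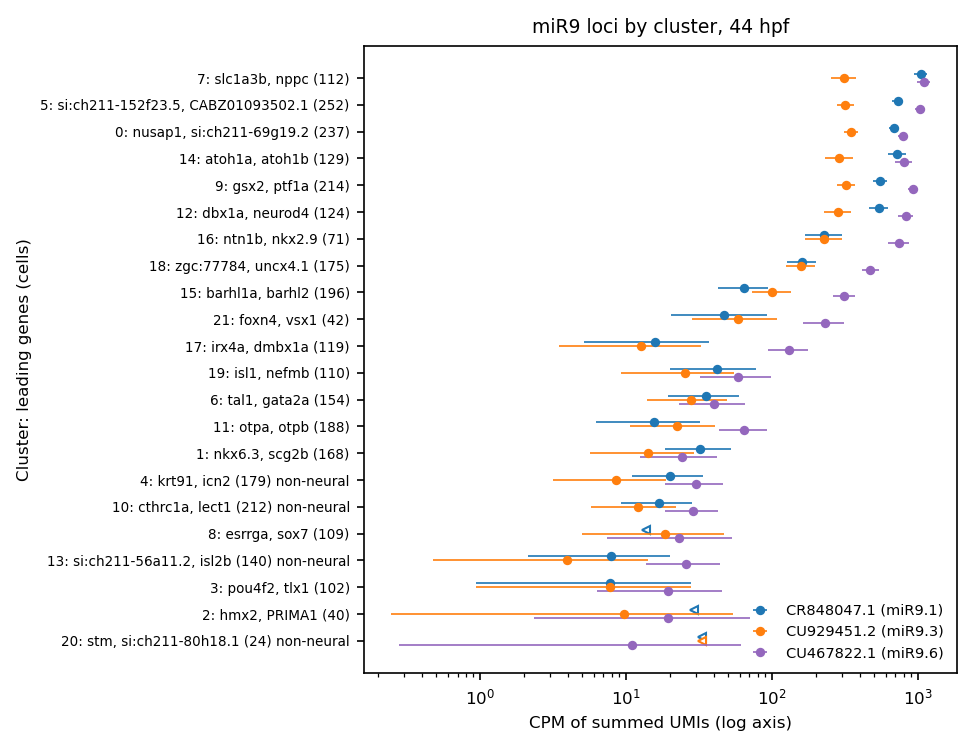
CPM of summed UMIs (log axis) of each *miR9* locus in the 22 clusters of 44 hpf, named by number, by their leading genes and by their number of cells, and ordered by the sum over the loci; bars are 95% Poisson intervals that cover counting error only and open triangles stand at 3 UMIs where the count was 0. The 6 clusters at the top hold 538 to 1043 CPM of *CR848047.1*, and the 4 non-neural clusters hold at most 20.0 CPM of it.

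At 24 hpf *CU467822.1* alone had enough UMIs to be set beside the state genes. It was at 6.09 CPM in 676 neural cells with *fabp7a* and at 2.57 CPM in 994 cells without it (ratio 2.36, 1.33 to 4.32). The ratio was 1.01 for *sox3* (0.454 to 2.64), with 7 UMIs in the cells without *sox3*, 1.26 for *mki67* (0.702 to 2.23), 1.68 for *neurog1* (0.876 to 3.08) and 0.617 for *elavl3* (0.304 to 1.17), each with an interval that includes 1. The difference between the 24 and 44 hpf ratios was not tested.

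A further locus could be placed by annotation. In the RefSeq table of GRCz12tu, 7 genes are *mir9* genes, each overlapped by a long non-coding RNA, with strand not compared. Of these RNAs only *si:ch73-215f7.1*, which overlaps *mir9-2*, has a row of that name in the count tables. It had 2 UMIs in neural cells at 16 hpf and 15 at 24 hpf (1.11 CPM). Non-neural cells of 24 hpf were at 2.17 CPM (neural over non-neural 0.510, 0.233 to 1.12), so its neural level was not above background then. At 44 hpf it had 882 UMIs in neural cells (128 CPM, 119.7 to 137), against 7.03 CPM in non-neural cells. With *sox3* its ratio was 4.099 (3.34 to 5.07), with *fabp7a* 1.69 (1.46 to 1.96), with *mki67* 1.27 (1.01 to 1.57), with *neurog1* 1.81 (1.502 to 2.16) and with *elavl3* 0.590 (0.509 to 0.683). Its odds ratio of co-detection was 4.73 with *CU467822.1* (3.64 to 6.20), 4.06 with *CR848047.1* (3.197 to 5.17) and 2.53 with *CU929451.2* (1.97 to 3.23). This gene was singled out after its values were seen.

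The genes most like each locus were sought by Pearson correlation of log2(CPM + 10) over 61 clusters of the 3 libraries, among 10688 genes. The points share libraries and depth, and every library but that of 44 hpf is near 0 for the loci, so the measure favours genes of 44 hpf. *CU929451.2* (r = 0.979), *CU467822.1* (0.962), *si:ch73-215f7.1* (0.953), *BX465834.1* (0.923) and *znf1015.1* (0.919) were most like *CR848047.1*. For *CU929451.2* they were *si:ch73-215f7.1* (0.981), *CR848047.1* and *CU467822.1* (both 0.979), *BX465834.1* (0.956) and *znf1015.1* (0.910). The list of *CU467822.1* held *CU929451.2* (0.979), *BX465834.1* (0.978), *si:ch73-215f7.1* (0.975), *CR848047.1* (0.962) and *BX511161.1* (0.912).

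*BX465834.1*, a gene without a described role in the sources used here, was at 0.0568, 10.6 and 991 CPM in neural cells of 16, 24 and 44 hpf, and it was 3.197 times as high in cells with *CU467822.1* (3.01 to 3.39). The order of genes was another within 44 hpf, where the stage contrast plays no part. Over the 21 clusters of that stage with at least 30 cells, *si:ch73-21g5.7* was most like *CR848047.1* (r = 0.961), with *CU929451.2* at rank 2, *sox3* at rank 4 and *CU467822.1* at rank 11. *CU467822.1* was most like *CU929451.2* (0.970), and *BX465834.1* most like *CU467822.1* (0.981). Over the 18 neural clusters the Notch target *her2* came first for *CR848047.1* (0.977), with *CU929451.2* at rank 8 and *CU467822.1* at rank 23. *si:ch211-193l2.5* came first for *CU929451.2* (0.974) and *BX465834.1* for *CU467822.1* (0.986). These rankings within 44 hpf were chosen for printing after their values were seen. Over the 21 clusters, *sox3* was correlated with *CR848047.1* at r = 0.954, with *CU929451.2* at 0.942 and with *CU467822.1* at 0.931. *fabp7a* was at 0.530, 0.462 and 0.473, *neurog1* at 0.533, 0.539 and 0.547, *mki67* at 0.299, 0.282 and 0.278 and *elavl3* at -0.17, -0.05 and -0.02. Among these points are an otic and ganglia-like cluster with *fabp7a* in 75.0% of cells and *elavl3* in 83.9%, and the *foxn4* cluster with *mki67* in 65.8%, both low in the loci. Over the 18 neural clusters alone, *sox3* was at 0.9498, 0.943 and 0.924, *fabp7a* at 0.688, 0.688 and 0.662, *neurog1* at 0.554, 0.569 and 0.565, *mki67* at 0.424, 0.470 and 0.450, and *elavl3* at -0.59, -0.54 and -0.47. *elavl3* was thus more negative once non-neural clusters were left out.

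Neural cells with a UMI of a locus were then set beside those without it, over all 8101 genes with at least 20 UMIs, to see which other genes go with the loci. Genes at least 2-fold higher in the cells with the locus made up 10.4% for *CR848047.1*, 5.93% for *CU929451.2* and 11.8% for *CU467822.1*, and genes at least 2-fold lower 20.5%, 19.0% and 20.9%. The median ratio over all of these genes was 0.928, 0.922 and 0.913. The contrast is over all neural cells, so it includes the difference between progenitors and neurons that the choice of the loci used, and *sox3* itself was 3.04, 2.23 and 3.87 times as high in cells with *CR848047.1*, *CU929451.2* and *CU467822.1*. The gene lists were not compared within progenitors. Their counts below are to be read beside the shares of all genes given here.

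Most genes of the Notch response, which keeps neighbouring progenitors from differentiating, were higher in cells with the loci, by median ratios below that of *sox3*. Of 18 members with enough UMIs, 14 were at least 2-fold higher with *CR848047.1*, 7 with *CU929451.2* and 17 with *CU467822.1*, none was 2-fold lower, and the medians were 2.502, 1.96 and 3.16. The Notch target *her12* was 3.29, 2.42 and 4.12 times as high with each locus in turn. The 4 *her4* genes of the list are close copies that can share reads, and their ratios went from 1.74 to 3.202. The receptor *notch3* was 2.78, 1.75 and 6.11 times as high. The ligand *dlb*, found in newly born neurons, was at 0.768, 0.817 and 1.24.

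Of 14 radial glia genes, 9, 7 and 8 were at least 2-fold higher with *CR848047.1*, *CU929451.2* and *CU467822.1* and 2, 3 and 4 at least 2-fold lower. *gfap*, an intermediate filament of radial glia, was 3.25, 2.21 and 3.24 times as high, the sodium pump subunit *atp1b4* 3.14, 2.21 and 4.81 times and the transcription factor *sox9b* 3.80, 2.29 and 4.44 times. *slc1a3b* differed between the loci, at 2.88 with *CR848047.1*, 1.21 with *CU929451.2* and 6.53 with *CU467822.1*. Not all members of the list followed: the glutamate transporter gene *slc1a2b* was at 0.539, 0.514 and 0.426 and *ndrg3a* at 0.243, 0.399 and 0.266.

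Genes of the cell cycle were higher in cells with the loci, but by less. Among 20 genes, 5 were at least 2-fold higher with *CR848047.1*, 1 with *CU929451.2* and 8 with *CU467822.1*, with medians of 1.82, 1.47 and 1.91 and none 2-fold lower. Of all 8101 genes, 10.4%, 5.93% and 11.8% were at least 2-fold higher, so the count with *CU929451.2* was not above that share. *ccnd1*, the cyclin of G1 phase, was 2.94, 2.26 and 3.21 times as high. The replication gene *pcna* was 1.53, 1.62 and 3.197 times as high, whereas *nusap1* was at 1.59, 1.34 and 1.37. Of 4 genes in the list of cell cycle exit, 2 were at least 2-fold higher with *CR848047.1*, 0 with *CU929451.2* and 2 with *CU467822.1*. They were *btg2*, an antiproliferative gene of neurogenic progenitors, at 2.02, 1.78 and 2.44, and *ccnd2a*, a cyclin of G1 phase that promotes the cycle, at 2.43, 1.84 and 2.92. The inhibitors of cyclin-dependent kinases *cdkn1ca* (1.41, 1.096 and 1.55) and *cdkn1cb* (1.98, 1.17 and 1.55) did not reach 2-fold.

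Of 13 proneural and early neurogenesis genes, 3, 1 and 4 were at least 2-fold higher and 2, 1 and 1 at least 2-fold lower. Their median ratios were 0.645, 0.931 and 0.953. The interval lay above 1 for 4, 4 and 5 of them and below 1 for 7, 6 and 6, so the list had no single direction. *ascl1a*, a proneural gene of progenitors, was 2.97, 1.84 and 4.32 times as high and *ptf1a* 2.91, 2.57 and 5.24 times. *ebf3a*, a factor of later differentiation, was at 0.275, 0.303 and 0.354. Of 19 neuronal genes 18 were at least 2-fold lower with each locus, with medians of 0.1196, 0.174 and 0.0991. *elavl4* was at 0.0798, 0.159 and 0.0706 and *snap25a* at 0.0676, 0.123 and 0.0428, and *tubb5*, a tubulin, was the exception at 0.607, 0.654 and 0.602.

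Of 12 genes known as miR-9 targets in zebrafish or mouse that had enough UMIs, 5, 4 and 5 were at least 2-fold higher in cells with *CR848047.1*, *CU929451.2* and *CU467822.1* and 4, 4 and 3 at least 2-fold lower. Those with progenitor roles were higher where the loci were: *her6* at 2.12, 2.22 and 3.14, *her9* at 2.52, 2.07 and 3.32, *zic5* at 2.75, 2.53 and 4.21 and *rest*, a repressor of neuronal genes whose pairing with miR-9 is known from mammals, at 4.70, 3.46 and 6.10. The receptor *fgfr1a* was at 3.23, 1.55 and 3.28. Lower by at least 2-fold with each locus were the neuronal transcription factor genes *onecut1* (0.0539, 0.0563 and 0.0466) and *onecut2* (0.145, 0.481 and 0.281) and *cnpy1* (0.175, 0.173 and 0.131), which acts in fibroblast growth factor signalling in zebrafish. *foxp2* was at 0.282, 0.0769 and 0.533, and *elavl3* at 0.511, 0.598 and 0.624. Over the stages, *her6* was at 1283, 966 and 554 CPM in neural cells and *her9* at 1446, 1302 and 371 CPM, while *elavl3* was at 113, 477 and 1081 CPM. The counts are of RNA, and repression of translation was not measured.

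Of the genes that cut and load microRNAs only 5 had enough UMIs, too few to speak for the class. Their medians were 0.602, 0.922 and 0.574 with *CR848047.1*, *CU929451.2* and *CU467822.1*, against 0.928, 0.922 and 0.913 over all genes. The interval lay below 1 for 1, 0 and 3 of the 5 and above 1 for 0 with each locus. None of the 5 was at least 2-fold higher with any locus, against 10.4%, 5.93% and 11.8% of all 8101 genes. At least 2-fold lower were 0, 0 and 2 of the 5, against 20.5%, 19.0% and 20.9% of all genes. *dicer1*, which cuts the hairpin, was at 1.04, 1.099 and 1.14 and had 73.6, 49.6 and 51.2 CPM in neural cells of 16, 24 and 44 hpf. *dgcr8*, a partner of the nuclear processing enzyme, was at 0.793, 0.949 and 0.574. *lin28a*, an RNA-binding protein of early embryos, was at 42.5, 86.2 and 7.54 CPM over the stages.

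The largest ratios in cells with a locus belonged to genes with few UMIs. These genes were picked as the 5 with the largest ratio for each locus. Their ratios and the differences between loci are thus extremes by choice, for which the intervals of these genes make no allowance. With *CR848047.1* they were *tmc6b* (21 against 2 UMIs), *p3h1*, *olig2*, *afap1l2* and *entpd1*, of which *olig2*, a transcription factor of ventral progenitors and oligodendrocyte precursors, had the most UMIs, 62 in cells with the locus and 11 in cells without it (ratio 10.2, 5.32 to 21.4). Its ratio was 1.44 with *CU929451.2* (0.852 to 2.38) and 3.004 with *CU467822.1* (1.74 to 5.44). With *CU929451.2* they were *foxa2*, *si:dkey-79d12.5*, *lamb2l*, *cgnl1* and *sntb2*. *foxa2*, a floor plate factor, was 6.92 times as high (2.54 to 21.8, 15 against 6 UMIs) and was at 0.301 with *CR848047.1* (0.0568 to 1.03). With *CU467822.1* they were *inhbb*, *tyms*, *chst14*, *wnt7bb* and a clone-named gene, among which *tyms*, an enzyme of thymidine synthesis, was 18.2 times as high (4.69 to 156, 37 against 2 UMIs) and was at 0.903 with *CR848047.1* (0.426 to 1.82).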

How the data were processed

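Single-cell libraries (10x Chromium 3′ v2) of dissected zebrafish hindbrain were analysed, 1 at each of 16, 24 and 44 hpf. The authors made the tables with Cell Ranger on GRCz10 and deposited counts, whole UMIs per gene and cell. The Cell Ranger version is not given in the sources used here, and the deposited aggregate table was not used.

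A cell was dropped when its UMIs, its genes or its share of mitochondrial RNA lay over 3 scaled median absolute deviations from the median, which took out 204, 231 and 432 cells in stage order. No doublet caller was run and free RNA was not subtracted, and the part of doublets in cells with *sox3* and *elavl3* was not tested. Each library was clustered alone in scanpy 1.11.5 (2000 variable genes by the "cell_ranger" method without the 3 loci and the 5 state genes, 30 components, 20 neighbours, Leiden at resolution 1), where the study used Seurat. A cluster was non-neural with at least 5 enriched markers of 1 non-neural class, or with at least 3 non-neural markers and no fewer than its neural markers, a rule set after seeing the clusters. A marker was enriched if 10% of cells had it and its CPM, with 5 added, was 2 times that of the other cells.

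CPM are of UMIs summed over cells, with exact Poisson intervals. Ratios have exact conditional binomial intervals, shares Clopper-Pearson intervals and odds ratios exact conditional intervals, all at 95%. States and co-detection used 2000 UMIs drawn from each cell with a seed of 1, and cells with fewer were left out. A UMI is 1 molecule only after the authors' collapsing of PCR copies, so intervals cover counting error only. A fold of 2 and a minimum of 20 UMIs over both groups defined the counts of genes. The ratio was run on simulated Poisson counts, the model that its interval assumes, so that run does not check the effect of uneven UMIs between cells. Correlations used genes with at least 100 UMIs in all and clusters of at least 30 cells. Named genes are the 3 loci, the 5 state genes, for each locus the 5 genes with the highest correlation and the 5 with the largest ratio (no mitochondrial, ribosomal or haemoglobin genes), members of 8 gene lists, and *si:ch73-215f7.1*. The members, the lists and the cluster names were chosen with earlier results of these data known. Python 3.11.15, numpy 2.4.6, scipy 1.17.1, pandas 2.3.3, anndata 0.12.19, igraph 0.11.9 and matplotlib 3.10.9 were used.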

Additional observations from a re-analysis of the deposited data

Results flagged for a closer look

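The 432 cells of 44 hpf that were removed for outlying depth or mitochondrial share also held the loci, far above the 0.902 CPM that a count of 0 allows there. *CR848047.1* was at 212.9 CPM in them (197.5 to 229.2), *CU929451.2* at 116.7 CPM (105.3 to 128.9) and *CU467822.1* at 275.4 CPM (257.9 to 293.9). These cells had a median of 7322 UMIs. They belong to no comparison above, and only the values recomputed below with no cells removed draw on them.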

How the results depend on the processing

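Of 174 values recomputed under another setting, 117 stayed within their counting interval (or, for counts of genes, within 1.5 times) and 57 did not. A change of direction was defined only for the 12 odds ratios and the 90 ratios by state gene, and 0 of them changed direction. Stage levels and counts of genes have no direction to change. Values for the loci or pairs are in the order *CR848047.1*, *CU929451.2*, *CU467822.1*, and first pair *CR848047.1* with *CU929451.2*, then *CR848047.1* with *CU467822.1*, then *CU929451.2* with *CU467822.1*. The causes were not tested unless the setting's own construction (more cells, fewer genes) shows them. All cells here means the neural and non-neural cells kept after removal of outlying cells, not every cell of the library. Neural levels at 44 hpf came to 377.7, 193.8 and 538.8 CPM with no cells removed. As the mean of single cells they were 320.8, 163.8 and 473.8 CPM. Over all cells the levels at 44 hpf were 269.8, 137.7 and 396.6 CPM, and *CU467822.1* at 24 hpf was at 3.04 CPM. Odds ratios of the pairs came to 3.27, 4.93 and 3.29 with 1000 UMIs drawn, 8.97, 18.7 and 9.99 with all UMIs, and 6.28, 13.03 and 7.90 over all cells. The *sox3* ratios came to 6.32, 4.62 and 4.32 when 2 UMIs were needed, 6.26, 4.16 and 4.52 with 1000 UMIs, 16.3, 10.5 and 9.49 over all cells, and 17.6 (*CR848047.1*) and 7.64 (*CU467822.1*) with all UMIs. For *mki67* they came to 1.37 and 1.09 (*CR848047.1*, *CU467822.1*) with 2 UMIs and 1.94 and 1.47 with 1000 UMIs, and for *fabp7a* to 2.45 (*CU467822.1*) with 2 UMIs. For *neurog1* they were 1.64 with 1000 UMIs and 1.66 with all UMIs (*CR848047.1*), and 1.80, 1.67 and 1.93 over all cells. For *elavl3* they were 0.314 with 2 UMIs, 0.408 with 1000 UMIs and 0.398 with all UMIs (*CR848047.1*), 0.517 with 1000 UMIs and 0.492 with no cells removed (*CU467822.1*), and 0.577, 0.717 and 0.705 over all cells. The count of genes at least 2-fold higher with *CU929451.2* was 736 at a minimum of 10 UMIs, against 480. At a minimum of 50 UMIs, where fewer genes are tested, genes at least 2-fold higher were 556 (*fabp7a*, against 1067), 707 (*sox3* without *elavl3*, against 1363), 460, 236 and 559 (the loci, against 844, 480 and 958), and genes at least 2-fold lower 1027, 912 and 1034 (against 1663, 1537 and 1695). Leaving out cells whose barcode occurs in another library, an alternative chosen after seeing the data, kept the 9 stage values within their intervals. With 1 library a stage no replicate could be left out, and at 16 and 24 hpf *CR848047.1* and *CU929451.2* had at most 5 UMIs in neural cells, so no state could be compared.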
